A study of Mus musculus with 71 samples.

Results

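The comparison sets 3 arrays of cerebellum from old wild-type (WT) mice against 4 arrays from young WT mice, all injected with saline. Its 7 arrays were chosen by the age, genotype and treatment in their labels, from 29 arrays of the injection arm and 71 arrays in the series. Old animals were 18 months old and young animals 4 months old. All were male, of C57BL/6 background and kept on house chow, and the saline was injected daily for 1 week. Saline animals were the controls for nicotinamide riboside (NR), a precursor of NAD+ given by intraperitoneal injection at 500 mg/kg per day for 1 week. The arm also held Csbm/m mice, which carry a mutation of the DNA repair protein CSB and are used as a model of Cockayne syndrome. They are written here as Csb. RNA was read on Illumina MouseRef-8 v2 bead arrays. Each value below is a log2 intensity after background correction and quantile normalization within the 29 arrays, unless another scale is named, and a probe passed the test at an adjusted p under 0.05 in limma.

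The cerebellum consists mainly of small granule neurons, the large Purkinje neurons that carry its output, interneurons, and glia that include Bergmann glia, oligodendrocytes and microglia. Microglia are the resident macrophages of the brain, and they clear debris through lysosomal enzymes such as lysozyme and the cathepsins. In the aging rodent brain, genes of microglial activation, complement and antigen presentation are known to increase, while many genes of neuronal function decline.

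Promoters are shown for 2 pairs of genes that moved by large amounts. Lyz2 (lysozyme M) and Ctss (cathepsin S) are macrophage enzymes that both rose, whereas Rnase4 and Ang are neighbouring ribonuclease genes that moved in opposite directions. The sequences are the 250 bases before the annotated start in RefSeq's GRCm38.p6 table, 5′ to 3′ on the gene's strand, and 30 of the 35 genes named below had an entry there. Capitals mark AGGAA on either strand (TTCCT on the other), the core that ETS factors such as the macrophage factor PU.1 recognise. Of 32536 different windows of this length, 60.2% held it, with a median of 1 match. The Lyz2 window held 4 matches, the Ctss window 1 and the Ang window 2. Ang and Rnase4 have this same window in common, and Rnase4 has a further annotated start, not shown.
Lyz2, chr10:117282273-117282522, minus strand: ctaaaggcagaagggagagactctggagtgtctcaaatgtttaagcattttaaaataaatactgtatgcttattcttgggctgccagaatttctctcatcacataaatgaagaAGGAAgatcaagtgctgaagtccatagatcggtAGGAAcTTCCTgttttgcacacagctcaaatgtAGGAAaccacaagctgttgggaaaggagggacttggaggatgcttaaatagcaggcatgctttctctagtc
Ctss, chr3:95526536-95526785, plus strand: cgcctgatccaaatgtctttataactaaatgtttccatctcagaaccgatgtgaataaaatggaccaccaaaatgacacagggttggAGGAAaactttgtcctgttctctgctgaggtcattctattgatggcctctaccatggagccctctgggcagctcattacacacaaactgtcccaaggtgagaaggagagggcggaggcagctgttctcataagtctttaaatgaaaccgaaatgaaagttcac
Ang and Rnase4, chr14:51090827-51091076, plus strand: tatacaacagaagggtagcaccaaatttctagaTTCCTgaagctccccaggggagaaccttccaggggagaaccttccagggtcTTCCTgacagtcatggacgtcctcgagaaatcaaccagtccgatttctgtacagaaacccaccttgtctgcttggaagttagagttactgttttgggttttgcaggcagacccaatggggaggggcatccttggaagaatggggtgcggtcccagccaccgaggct

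Before the results, the arrays were compared with their labels. Markers of the cerebellum were bright on all 7 arrays: Pcp2, made by Purkinje cells, ranged from 12.89 to 13.41 in the old group and from 13.04 to 13.95 in the young group. Cbln1, a synaptic organizer of granule cells, ranged from 13.79 to 14.40 and from 14.13 to 14.60. Correlations between arrays of a group were 0.96 to 0.988 (old) and 0.974 to 0.99 (young), and no pair among the 29 arrays exceeded 0.993. Between 48.1% and 49.8% of probes were detected on the old arrays and between 46.6% and 48.8% on the young ones. The highest intensity on an array, 31525 to 33819 in the old group and 34398 to 41291 in the young group, did not overlap, so brightness and age cannot be told apart in these 7 arrays.

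Markers of brain regions outside the cerebellum varied strongly inside both groups, as the plot of marker lists by array shows. Tph2, the serotonin-synthesis enzyme of the brainstem raphe, read 10.39, 11.53 and 8.04 on the old arrays and 10.04, 5.66, 8.52 and 5.36 on the young arrays. Hoxb5, a gene of the hindbrain and spinal cord, read 10.57, 10.23 and 4.87 against 9.33, 7.17, 5.43 and 4.85. Old replicates 1 and 2 and young replicate 1 were the high arrays for both genes. Over the 10 markers of other regions tested, 9 were higher in the old group, 0 passed the test, and the median difference was 1.57. Their summed level was 3007 to 9827 in the old group and 3412 to 6363 in the young group, on the linear scale. Ttr, the transthyretin gene of the choroid plexus, ranged from 7.18 to 14.73 in the old group and from 6.39 to 14.62 in the young group. With the mean of the other-region markers as a covariate, an alternative chosen after seeing the data, 407 probes passed the test in place of 181. The part of this tissue in the single results was not tested.

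**Figure D1:**
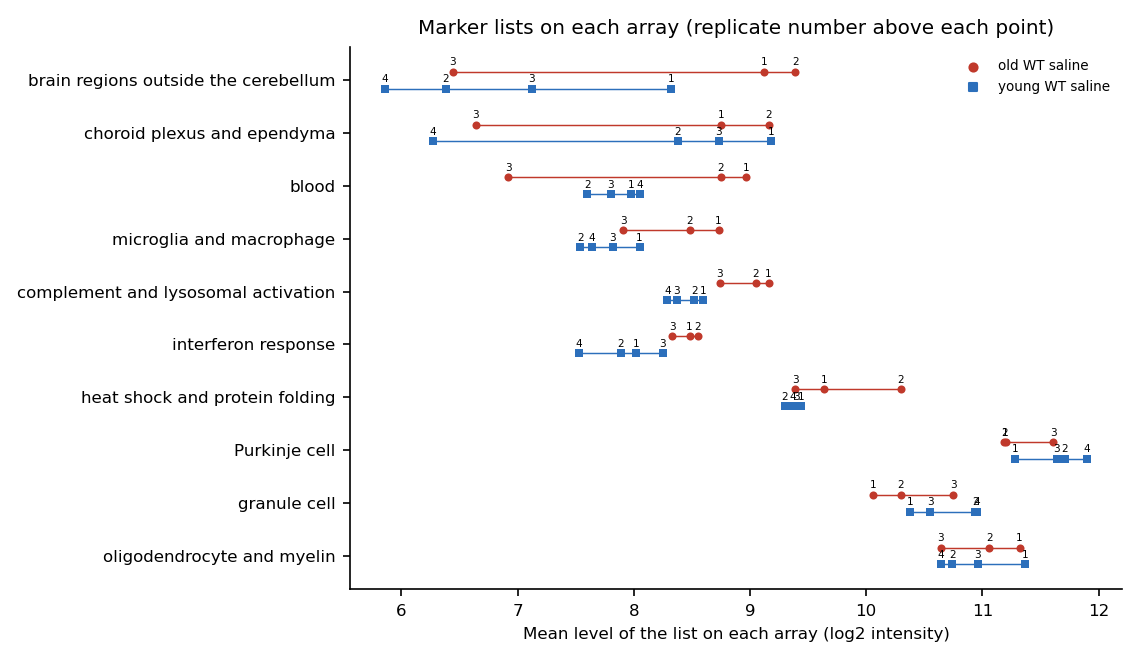
Mean log2 intensity of 10 gene lists on each of the 7 arrays, with old arrays as circles, young arrays as squares, lines for each group's range and replicate numbers above the points. The list of brain regions outside the cerebellum runs from 6.44 to 9.39 in the old group and from 5.86 to 8.32 in the young group, while the interferon and complement lists do not overlap between groups.

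Of 25697 probes on the array, 13948 were detected often enough to be tested, and 181 of them (1.3%) differed between old and young WT cerebellum after saline. Levels were higher in old animals for 75 probes (0.538%) of 71 named genes and lower for 106 probes (0.76%) of 96 named genes. Increases ran from 0.42 to 1.84 on the log2 scale and the lowest difference of a probe detected on an old array was -2.96 (Samd4). In the lower set 17 probes, and in the higher set 10, were detected on no array of the dimmer group, which leaves only a bound. More than 2-fold differences were 21 among the higher and 34 among the lower probes. Old and young arrays overlapped for only 3 of the 75 higher and 3 of the 106 lower probes, whereas the groups did not overlap for 14.5% of all probes tested. The median difference over all probes was 0.003, and 2082 probes had an unadjusted p under 0.05.

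The count rests on few arrays. It was 31 without old replicate 2, 48 without young replicate 4, 56 without old replicate 3 and 292 without old replicate 1. In the authors' deposited z-scores 128 probes passed, of which 52.3% were higher in old, against 41.4% here.

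**Figure D2:**
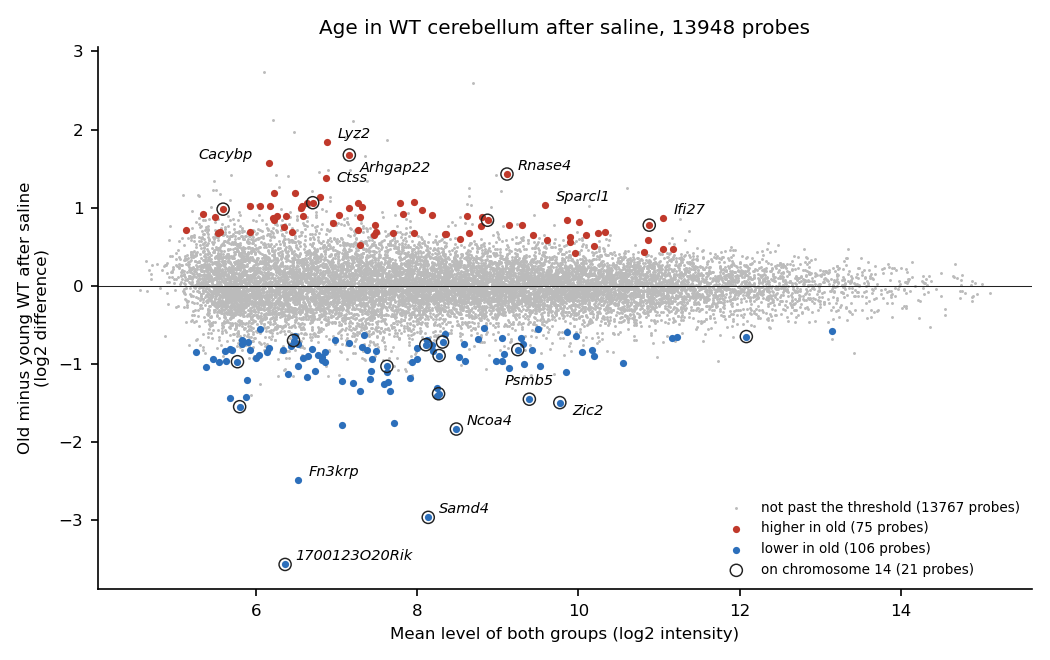
Log2 difference between old and young WT arrays after saline (vertical axis) against the mean level of both groups (horizontal axis, log2 intensity) for 13948 probes. The 75 higher and 106 lower probes that passed the test are coloured, and rings mark the 21 of them on chromosome 14. The lowest points are 1700123O20Rik, whose fitted value of -3.56 rests on undetected old arrays, and Samd4 at -2.96.

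Macrophage and microglial genes lay among the largest increases. Lyz2, the lysozyme of macrophages, read 7.93, 7.84 and 7.63 on the old arrays and 6.31, 6.45, 5.45 and 5.65 on the young arrays. All old arrays stood above all young ones, by 1.84 ± 0.41 (difference ± SE, adjusted p = 0.0223), or 3.57-fold. The probe was detected on all 3 old but only 2 of 4 young arrays, so this size rests partly on undetected readings. Ctss, a lysosomal protease that processes antigen, read 7.75, 7.73 and 7.21 against 6.42, 6.11, 6.12 and 6.08. The groups again did not overlap, and Ctss rose by 1.38 ± 0.29 (adjusted p = 0.0173). A further Lyz2 probe differed by 1.42 (adjusted p = 0.0963), and a Lyz1 probe, for a near-identical gene whose RNA may bind the same probes, by 1.25 (adjusted p = 0.097). Both calls were lost without old replicate 2 (adjusted p = 0.109 for both) and without young replicate 4. The Lyz2 call was also lost without old replicate 3 or young replicate 3, and the Ctss call without young replicate 2. Over 20 alternative settings the Lyz2 call was lost in 5 (adjusted p up to 0.254) and the Ctss call in 4 (up to 0.111).

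The microglial list had 14 tested genes. Of these only Ctss passed the test, but all 14 were higher in old animals, with a median of 0.60, against 51.3% of all genes and a median of 0.01. List medians use each gene's brightest probe, and a gene counts as passing when any of its probes passed. C1qa, C1qb and C1qc, the subunits of complement C1q, differed by 0.58, 0.62 and 0.61, and Trem2, a microglial lipid receptor, by 0.66. Cx3cr1, a homeostatic microglial receptor, differed by 0.01. The mean level of the list was 8.73, 8.48 and 7.91 on the old arrays against 8.05, 7.54, 7.82 and 7.64, so old replicate 3 lay inside the young range. In bulk tissue, more cells of a type and more RNA per cell cannot be told apart.

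Among 14 complement and lysosomal genes Lyz2 alone passed, 13 were higher and the median was 0.43. C4b, a complement component made by glia, differed by 1.05 (adjusted p = 0.178) and Clec7a, a receptor of activated microglia that no young array detected, was at least 1.12-fold higher (adjusted p = 0.192). All 10 interferon response genes were higher, with a median of 0.48, and 1 passed. That gene was Ifi27, an interferon-induced gene, which read 11.57, 11.56 and 11.33 on the old arrays against 10.98, 10.59, 10.63 and 10.26 on the young ones. Its level rose by 0.87 ± 0.21 (adjusted p = 0.0344), and its other probe differed by 0.71 (adjusted p = 0.0648). The call was lost in 11 of 20 alternative settings, with an adjusted p of up to 0.167. Of 11 antigen presentation genes, 10 were higher and 0 passed, with a median of 0.31. B2m, the light chain of MHC class I, was 12.74 in old and 12.21 in young animals (adjusted p = 0.146). Markers of other brain regions moved with these lists on several arrays, and their part was not tested.

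Icam1, the adhesion molecule that leukocyte integrins bind, read 7.50, 7.98 and 6.60 on the old arrays and 6.60, 6.09, 6.09 and 6.09 on the young ones. The lowest old array and the highest young array coincided, and the difference was 1.14 ± 0.25 (adjusted p = 0.0189). Without old replicate 2 it was 0.83 (adjusted p = 0.181).

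Genes of protein turnover moved both ways. Cacybp, a partner of the Siah1 ubiquitin ligase complex, read 6.98, 7.30 and 6.58 on the old arrays and 5.37, 5.37, 5.28 and 5.50 on the young ones, where no array detected it. It was therefore at least 2.06-fold higher in old animals (adjusted p = 0.00119). Psmd12, a subunit of the proteasome's regulatory particle, rose by 1.06 ± 0.21 (adjusted p = 0.0105). Ube2n, a ubiquitin-conjugating enzyme of signalling and DNA repair, rose by 1.07 ± 0.19 (adjusted p = 0.00448). Their brighter probes differed by 0.39 (Psmd12) and 0.19 (Ube2n), neither past the threshold. Becn1, which starts autophagosome formation, rose by 0.91 ± 0.22 at 1 probe (adjusted p = 0.0318) and differed by 0.05 at its other probe. Trim2, a neuronal ubiquitin ligase, rose by 1.03 ± 0.25 at a dim probe (adjusted p = 0.039), while its bright probe differed by -0.04. The Becn1 and Trim2 calls were each lost in 9 of 20 alternative settings.

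Psmb5, a catalytic subunit of the proteasome, fell by 1.45 ± 0.22 (SE, adjusted p = 0.00104). Its level was 8.67 ± 0.27 (SD, n = 3) in old and 10.12 ± 0.10 (n = 4) in young animals, with no overlap. In other arrays its age difference was -0.37 in WT after NR (adjusted p = 0.212) and 0.15 in Csb after saline (adjusted p = 0.742). Ube3a, the imprinted ubiquitin ligase of Angelman syndrome, fell by 1.41 ± 0.23 at 1 probe (adjusted p = 0.00137) and differed by 0.56 in the other direction at another (adjusted p = 0.198). Of 22 tested genes of the proteasome and autophagy list, Becn1 passed upward and Psmb5 downward, and the median was 0.06.

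Among 17 heat shock and folding genes 16 were higher, the median was 0.40 and 1 passed. The gene was Hspa5, the chaperone BiP of the endoplasmic reticulum, at a dim probe that was detected on 1 of 3 old and 0 of 4 young arrays. It read 5.09, 6.15 and 5.22 against 4.78, 4.73, 4.80 and 4.77, and at so few detections no size of the difference can be given. Its adjusted p of 0.0426 became 0.359 without old replicate 2, and the call was lost in 13 of 19 alternative settings. The mean level of the list was 9.64, 10.30 and 9.39 on the old arrays and 9.44, 9.30, 9.40 and 9.37 on the young arrays, so 1 old array was high and another lay inside the young range.

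Further increases fell on genes of several roles. Sparcl1, an astrocyte-secreted matrix protein that promotes synapse formation, was 10.10 ± 0.25 (SD, n = 3) in old and 9.07 ± 0.26 (n = 4) in young animals. It rose by 1.03 ± 0.16 (SE, limma adjusted p = 0.00104). Hprt, the purine salvage enzyme, rose at 2 probes by 1.08 (adjusted p = 0.00391) and 0.81 (adjusted p = 0.00656), and differed by 0.35 at its brightest probe (adjusted p = 0.186). Tspan6, a tetraspanin, rose by 1.19, Slc9b2, a sodium/proton exchanger, by 1.19, Abca8a, an ABC transporter, by 1.06, and Gm5797, a predicted gene on chromosome 14, by 1.06. Old and young arrays did not overlap for any of these 4 genes. Tspan6 was detected on 2 and Slc9b2 on 1 of 4 young arrays, so the sizes of these increases rest partly on undetected readings. Their adjusted p-values ran from 0.00638 (Gm5797) to 0.039 (Slc9b2). Of the alternative settings, the Slc9b2 call was lost in 14 of 20, that of Abca8a in 6 of 20, of Tspan6 in 3 of 20 and of Gm5797 in 2 of 19.

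**Figure D3:**
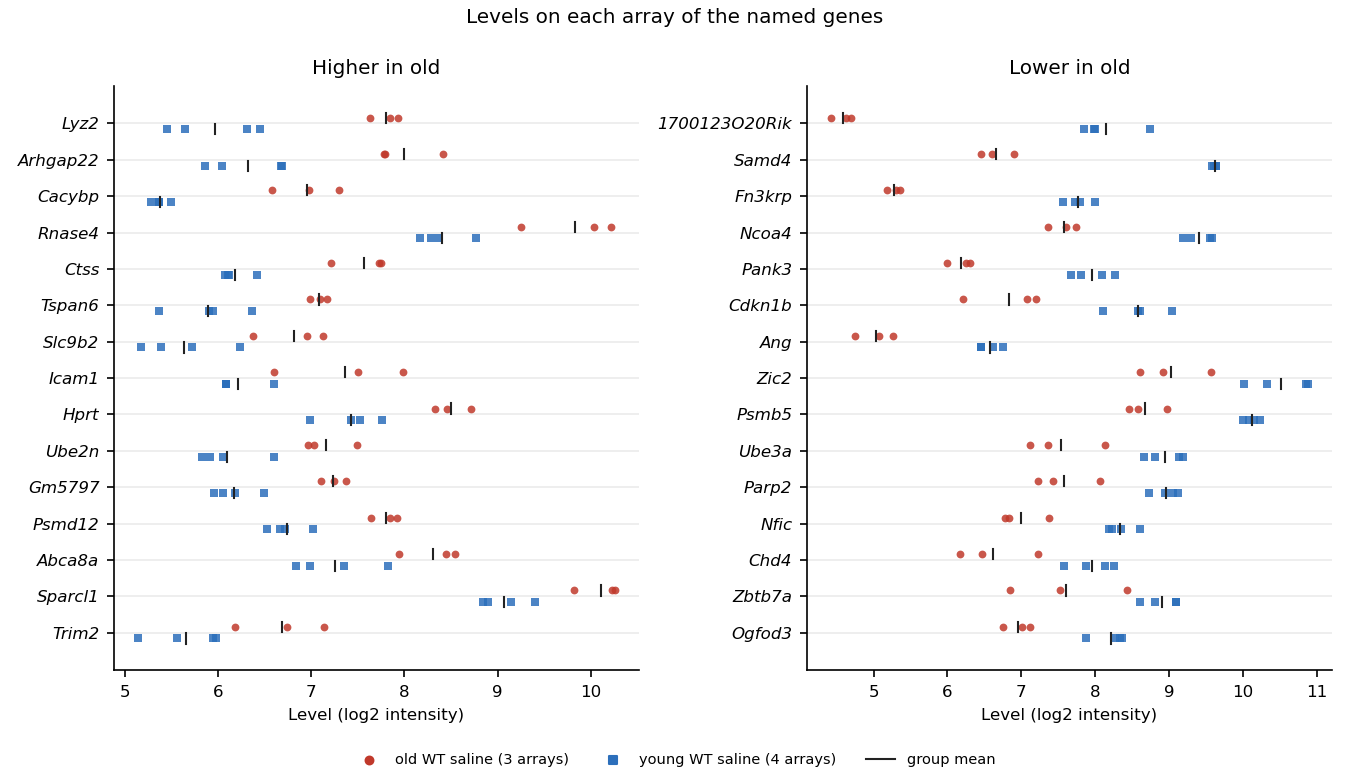
Log2 intensity on each array of the 15 genes with the largest increases and the 15 with the largest decreases, with old arrays as circles, young arrays as squares and vertical bars for group means. For Icam1 the groups touch at 6.60, and for the other 29 genes no old array lies inside the young range.

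Cdkn1b, Zic2, Nfic, Chd4 and Zbtb7a were among the 15 genes with the largest decreases. On the list of cell cycle arrest and senescence, which did not include Cdkn1b, 0 of 14 genes passed, with a median of -0.07. Cdkn1b, a cyclin-dependent kinase inhibitor, read 7.20, 7.08 and 6.21 on the old arrays and 8.10, 8.61, 8.58 and 9.04 on the young ones. It fell by 1.75 ± 0.28 (SE, adjusted p = 0.00119), and a further Cdkn1b probe, undetected on the old arrays and detected on 3 of 4 young ones, was at least 1.48-fold lower (adjusted p = 0.00438). Zic2, a zinc finger factor of the granule cell lineage, read 8.91, 8.60 and 9.56 against 10.01, 10.85, 10.32 and 10.88. All old arrays stood below all young ones, by 1.49 ± 0.34 (adjusted p = 0.0251), and the call was lost in 7 of 19 alternative settings (adjusted p up to 0.25). Nfic, a nuclear factor I protein, fell by 1.34 at 1 probe (adjusted p = 0.00164) and 1.17 at another, and differed by -0.16 at the brightest one. Chd4, the helicase of the NuRD complex, fell by 1.34 (adjusted p = 0.0122) and 1.10 at 2 probes and differed by -0.39 at its brightest. Zbtb7a, a transcriptional repressor, fell by 1.30 ± 0.28 (adjusted p = 0.0197). The Chd4 call was lost in 6 and the Zbtb7a call in 7 of 20 alternative settings.

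Further decreases were found at Pank3, Atp2b2 and Fn3krp. Pank3, which catalyses the first step of coenzyme A synthesis, read 6.00, 6.25 and 6.31 on the old arrays and 7.67, 8.27, 7.81 and 8.09 on the young arrays. It fell by 1.77 ± 0.26 (adjusted p = 0.000805). Atp2b2, the plasma membrane calcium pump abundant in Purkinje cells, fell by 1.22 ± 0.22 at a dim probe (adjusted p = 0.00438), while its bright probe differed by -0.21 (adjusted p = 0.684). Fn3krp, a kinase that removes sugar adducts from proteins, was detected on 0 of 3 old arrays (5.36, 5.30 and 5.18) and on all 4 young ones (7.79, 7.56, 7.72 and 8.00). It was at least 3.84-fold lower in old animals (adjusted p = 0.0192). Its levels lay near these same 2 values in Csb animals, as 5.47, 7.53 and 7.26 in the old and 7.79, 5.14 and 7.57 in the young saline group, so old and young Csb arrays were not separated.

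Neuronal lists leaned downward without further calls. Zic2, whose call depended on the setting as given above, was the 1 of 11 granule cell genes that passed, and the list's median was -0.35. Of 8 Purkinje cell genes 0 passed, with a median of -0.38 and Pcp2 at -0.44 (adjusted p = 0.501). Atp2b2 was the 1 of 15 calcium signalling genes that passed, and that median was -0.18. On the granule and Purkinje lists the array lowest in other-region markers within each age (old replicate 3, young replicate 4) had the highest mean, and the part of that tissue was not tested. Of the 30 lists 21 had 0 calls, among them synaptic transmission (median -0.19 over 18 genes), myelin (0.10 over 14), astrocytes and Bergmann glia (0.07 over 12), oxidative phosphorylation (0.05 over 20) and the cytosolic ribosome (0.02 over 18). Gfap, the astrocyte filament gene, differed by 0.53 (adjusted p = 0.434).

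The calls were unevenly spread over the chromosomes. Chromosome 14 held 21 of them among 446 probes tested (4.71%), chromosome 10 held 17 among 608 (2.8%), and on the other chromosomes the share was at most 1.6%. Within chromosome 14, the stretch in gene order from Samd4 to Slc7a8 held 10 calls among 60 probes of 43 genes (16.7%), against 2.85% on the rest of that chromosome. Of these 10 genes, 8 were lower in old animals, and Rnase4 and Ndrg2 were higher. The stretch was chosen after its values were seen.

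1700123O20Rik, a protein-coding gene known by its clone name, gave the lowest difference of all. It read 4.63, 4.69 and 4.42 on the old WT saline arrays, none of which detected it, and 7.85, 8.00, 7.98 and 8.74 on the young ones. That is at least 4.98-fold lower (adjusted p = 4.85e-13). On all 26 other arrays of the arm, old WT animals given NR included, the same probe read 7.69 to 8.74. Its other probe differed by -0.16 (adjusted p = 0.555), at means of 10.26 and 10.43.

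Samd4, an RNA-binding repressor of translation, showed the same separation. It read 6.90, 6.46 and 6.60 in old WT after saline and 9.64, 9.63, 9.58 and 9.61 in young WT after saline, and fell by 2.96 ± 0.18 (adjusted p = 4.46e-11). The other 26 arrays lay between 8.72 and 9.90. The 3 old WT saline arrays also lay below every other array for Ang, Psmb5, Parp2 and Apex1 on chromosome 14 and for Ogfod3 on chromosome 11. Ogfod3, named for its oxygenase domain, was 6.96 in old and 8.21 in young WT (it fell by 1.26 ± 0.15, adjusted p = 6.58e-05), while the 26 other arrays lay between 7.87 and 8.72.

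Such separation from all 26 other arrays was seen for 11 of the 181 probes (6.08%), against 0.136% of all probes tested. The 181 were called against 4 of these 26 arrays, so part of that excess follows from how they were chosen. Among all 446 chromosome 14 probes tested, called or not, 14 (3.14%) stood apart in this way. Of the 11, 8 were on chromosome 14 and all were lower.  Old WT animals given NR and old Csb animals are among the 26 other arrays, and at the 11 probes all of them read above the 3 arrays. At 1700123O20Rik the range was 7.8 to 8.39 in old WT after NR and 7.99 to 8.27 in old Csb after saline. That every other old array read above the 3 arrays follows from how these 11 probes were picked, and is no separate result. What sets the 3 arrays apart was not tested.

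The ribonuclease genes whose promoters are shown above lie inside this stretch. Ang, a ribonuclease that cleaves transfer RNA, read 5.26, 5.07 and 4.75 in old WT after saline, undetected, and 6.46, 6.61, 6.75 and 6.46 in young WT. It was at least 1.67-fold lower in the old group (adjusted p = 0.00231). Rnase4, a secreted ribonuclease, read 10.21, 10.03 and 9.25 against 8.77, 8.28, 8.37 and 8.17, and rose by 1.43 ± 0.22 (adjusted p = 0.000894). A further Rnase4 probe was detected on none of the 7 arrays. The shown window is annotated to both genes, and the Ang probe and the detected Rnase4 probe moved in opposite directions.

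The calls on the DNA repair and NAD lists lay in this stretch. Apex1, the endonuclease of base excision repair, fell by 0.81 ± 0.12 at 1 probe (8.84 in old, 9.65 in young, adjusted p = 0.000805), and its other probe differed by 0.33 in the other direction. Parp2, a poly(ADP-ribose) polymerase that consumes NAD+, fell by 1.38 ± 0.20 at 1 probe (adjusted p = 0.000805) and differed by 0.14 at its brighter one (adjusted p = 0.788). No further gene passed among the 14 of the repair list (median -0.01) or the 14 of the NAD and sirtuin list (median 0.08). Sirt1, an NAD-dependent deacetylase, differed by 0.05 and Nampt, the salvage enzyme that limits NAD+ synthesis, by 0.49.

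At a pair of chromosome 14 genes the old WT saline arrays lay near the Csb arrays. Ncoa4, the receptor that delivers ferritin to autophagy, read 7.36, 7.61 and 7.74 in old WT after saline. The other WT arrays lay between 8.82 and 10.28, and the 13 Csb arrays between 6.94 and 8.91 (6.94 to 7.45 after saline). After saline the fall with age in WT was 1.83 ± 0.28 (adjusted p = 0.00104), whereas after NR the age difference was 0.59 (adjusted p = 0.112). Arhgap22, a GTPase-activating protein for Rac, read 8.41, 7.78 and 7.79 in old WT after saline, 5.59 to 7.58 in the other WT arrays and 6.93 to 8.35 in the Csb arrays (7.80 to 8.35 after saline). It rose by 1.68 ± 0.32 (adjusted p = 0.00656). With the NR arrays included, the ranges of the genotypes overlap at both genes. The overlap comes from young Csb NR replicate 2, which read 8.91 at Ncoa4 and 6.93 at Arhgap22. That array also read 7.37 at Gpnmb and 5.02 at Clec7a, where the other 2 of its group read 10.26 (both) and 7.72 and 7.80. It enters the age comparison in WT through the spread, the joint normalization and the detection filter. With that array left out of the fit alone, 200 probes passed.

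Genotype was checked with probes chosen without the old WT saline arrays. In old saline animals 32 probes (0.229%) differed between Csb and WT, a count that uses the 3 arrays in question. In young saline animals 7 probes of 6 genes (0.0502%) differed between Csb and WT: Ncoa4, Arhgap22, Tmem254a and Plac9a on chromosome 14, and Gpnmb (2 probes) and Clec7a on chromosome 6. Gpnmb, a lysosomal glycoprotein of macrophages, read 8.11, 8.24 and 7.76 in old WT after saline at its brighter probe, 8.14 to 8.85 in old WT after NR and 11.14 to 11.63 in old Csb after saline. Tmem254a read 9.58, 8.92 and 8.92, within the other WT arrays, where Csb arrays lay at 7.25 to 8.22. Plac9a read 6.81, 6.44 and 5.60 in old WT after saline, 5.06 to 6.94 in old WT after NR and 4.76 to 5.66 in Csb, so the lowest of the 3 lay inside the Csb range. Clec7a read 6.25, 6.05 and 5.93, near old WT after NR at 6.09 to 6.97, and the Csb arrays ran from 5.02 to 8.04. Thus at Gpnmb and Tmem254a the 3 arrays lay in the range of WT arrays, and at Ncoa4 and Arhgap22 in or just above that of Csb arrays. Only Tmem254a separated the genotypes on all arrays. At Gpnmb young Csb NR replicate 2 read 7.37, inside the WT range, so there the 3 arrays also lay within the full Csb range of 7.37 to 11.63. The mutated gene was not analysed here.

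**Figure D4:**
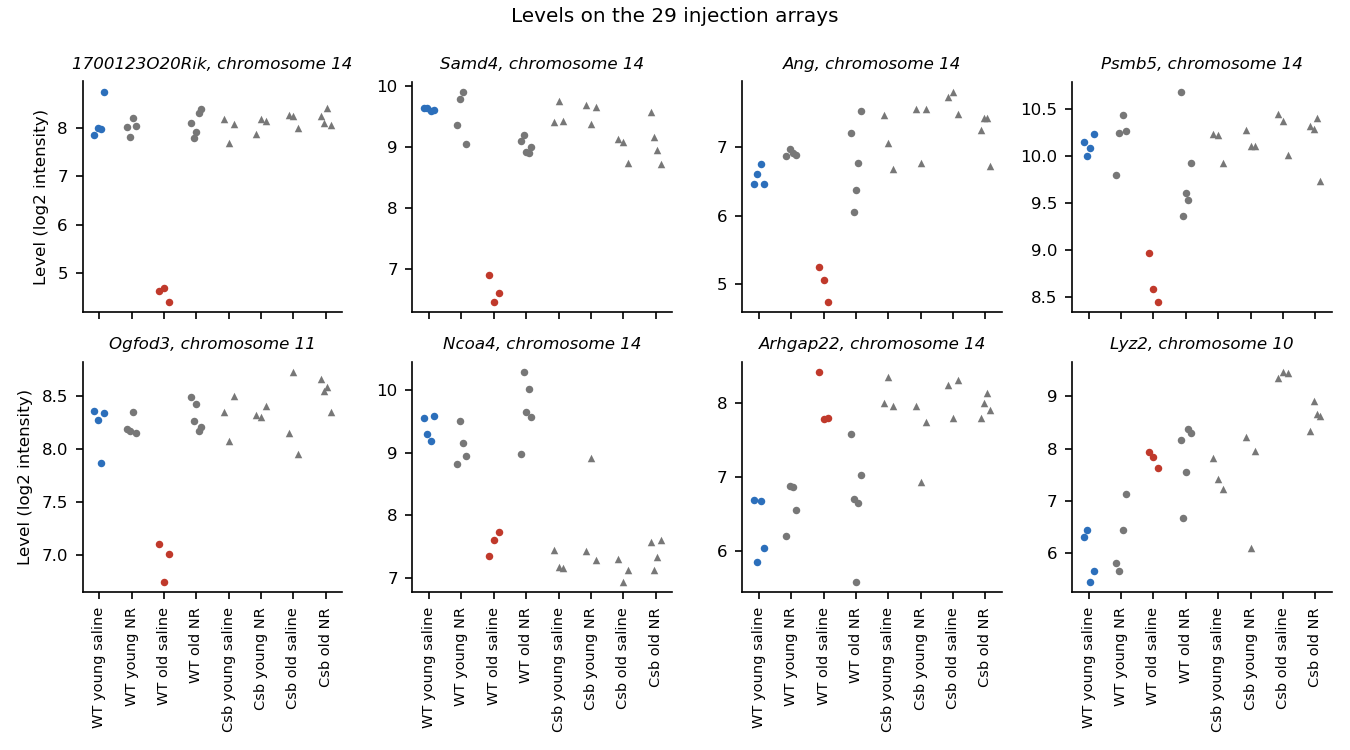
Log2 intensity of 8 genes on the 29 injection arrays, with old WT saline in red, young WT saline in blue, all other groups in grey, circles for WT and triangles for Csb. At 1700123O20Rik, Samd4, Ang, Psmb5 and Ogfod3 the 3 old WT saline arrays lie below all others, at Ncoa4 and Arhgap22 they lie near the Csb arrays, and at Lyz2 they lie with old WT after NR.

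Age could be compared again in groups that hold none of the 7 arrays: old against young WT after NR (5 against 4 arrays) and old against young Csb after saline (3 against 3). One spread estimate served all groups. After NR 1978 probes (14.2%) passed, 933 higher (6.69%) and 1045 lower (7.49%). In Csb after saline 458 (3.28%) passed, 233 higher (1.67%) and 225 lower (1.61%). In Csb after NR, 2 probes (0.0143%) passed in limma, with 497 at an unadjusted p under 0.05, and 0 of the 181 were among the 2. Without young Csb NR replicate 2, an alternative chosen after seeing the data, 2 probes passed as well, with 298 at an unadjusted p under 0.05 and 0 of the 181. Of the 181 probes, 169 had the same sign after NR and 55.8% passed there in the same direction, which is 5.11% of that list. In Csb, 175 had the same sign and 87 (48.1%) passed in the same direction, which is 19% of that list. Both sets were passed by 57 probes and neither by 50. In the opposite direction 0 passed after NR and 1 in Csb. Over all 13948 probes, the log2 differences correlated at r = 0.496 with those after NR and at 0.677 with those in Csb, as a description across probes that are not independent.

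All 75 higher probes were higher in old animals in WT after NR and in Csb after saline, with median differences of 0.61 after NR and 0.67 in Csb against 0.84 here. The 106 lower probes had the same sign in 94 and 100 cases. In Csb after NR 71 of the 75 and 97 of the 106 had the same sign, with medians of 0.32 and -0.29. The share of all tested probes with the same sign was not counted. The values that follow are for WT after NR and then Csb after saline. Lyz2 rose by 1.55 after NR (adjusted p = 0.00706) and by 1.94 in Csb (adjusted p = 0.0234), and Ctss by 0.96 (adjusted p = 0.0154) and 1.49 (adjusted p = 0.016). Cdkn1b fell by 1.15 (adjusted p = 0.00436) and 1.92 (adjusted p = 0.00287), Pank3 fell by 1.81 (adjusted p = 0.000303) and 1.42 (adjusted p = 0.0116), and Zic2 fell by 1.10 (adjusted p = 0.0165) and 1.84 (adjusted p = 0.0116). Fn3krp, detected on 0 of 5 old arrays after NR, was at least 3.98-fold lower there (adjusted p = 0.00197) and differed by -0.08 in Csb.

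Of the 21 chromosome 14 probes, 8 (38.1%) passed after NR in the same direction and 6 (28.6%) in Csb. Of the other 160 it was 58.1% and 50.6%, and the difference between these shares was not tested. 1700123O20Rik differed by 0.09 after NR and 0.19 in Csb, and Ang by -0.12 and 0.60. Apex1 rose in Csb by 0.51 (adjusted p = 0.0321), the 1 call in the opposite direction.

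Whether the age difference depended on treatment or genotype was tested with interaction terms. In WT the age difference after saline differed from that after NR for 6 probes (0.043%): 1700123O20Rik, Samd4, Ncoa4, Parp2, Apex1 and Ogfod3. It differed between WT and Csb after saline for 5 probes (0.0358%): 1700123O20Rik, Samd4, Ang, Apex1 and Ogfod3. Every one of these terms was negative. Without the probes of chromosome 14, an alternative chosen after seeing the data, 1 and 0 probes remained past the threshold. For Lyz2 the term was 0.28 against NR (adjusted p = 0.945) and -0.11 against Csb, and for Ctss 0.42 (adjusted p = 0.833) and -0.10, none past the threshold.

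NR against saline within old WT uses the same 3 old arrays, so it is no separate evidence. It gave 10 probes (0.0717%), all higher after NR, with Samd4 at 2.36, Ncoa4 at 2.12 and 1700123O20Rik at least 4.85-fold. Of the 10, 9 were on chromosome 14 and the other was Ogfod3. NR against saline in young WT gave 0 probes (0%) in limma, with 903 at an unadjusted p under 0.05.

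**Figure D5:**
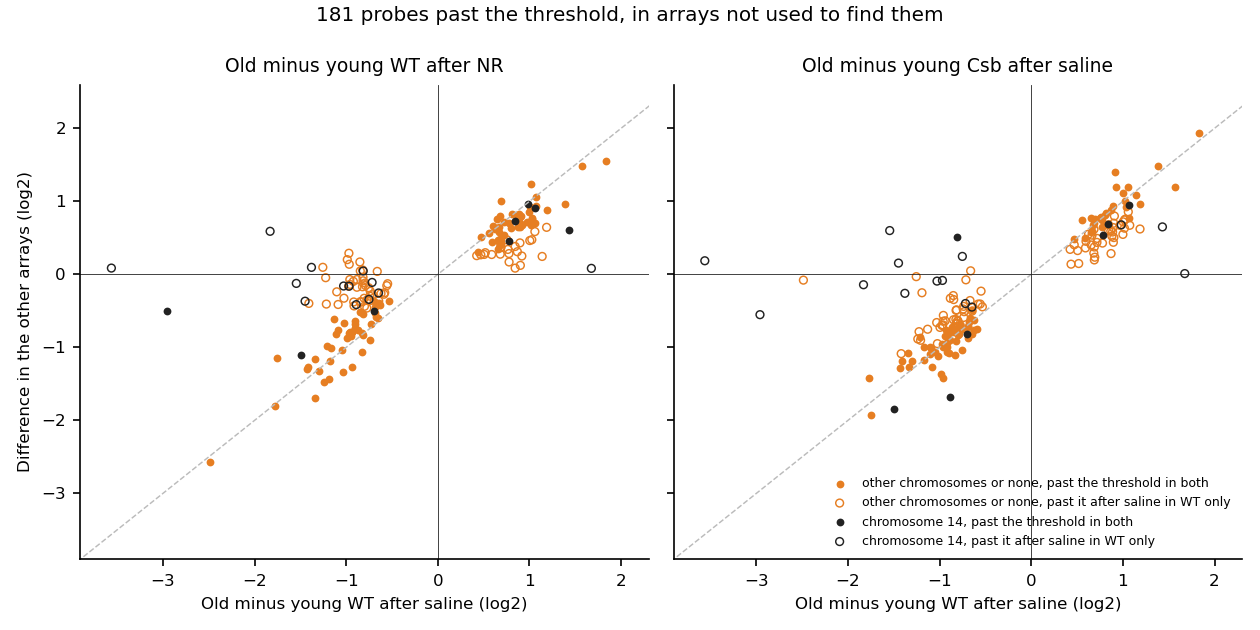
Log2 age difference of the 181 probes after saline in WT (horizontal axes) against that in WT after NR (left) and in Csb after saline (right), with filled points for probes past the threshold in both, black for chromosome 14 and a dashed line of equal values. The higher probes lie above 0 in both panels, while several black points lie far below 0 on the horizontal axes and near 0 on the vertical ones.

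Gene length and promoter GC content were set beside the calls, with no test. The median length of the gene was 21.3 kb for higher, 37 kb for lower and 23.8 kb for all probes tested. The GC content of the promoter window had a median of 61.0%, 62.0% and 61.0%. Of 82 genes with a call and more than 1 probe tested, all probes passed for 2, all had 1 sign for 62, and a probe had the opposite sign for 20. The differences therefore belong to the named probes and not in every case to the whole output of the gene.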

How the data were processed

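Total RNA of mouse cerebellum was labelled as cRNA and read on 1-colour bead arrays. The deposited probe intensities and the detection p-value beside each were exported by the authors from GenomeStudio 1.9.0, per the submitters' processing notes. The score table the authors deposited holds a z-score per probe and array, with a mean of 0 in each column as its values show, and served only as an alternative. The sources used here give no other step, and 0 sample columns were left unmatched. Intensities of the 29 injection arrays were corrected with limma 3.58.1 in R 4.3.3 (neqc: normexp background from the detection p-values, offset 16, quantile normalization, log2). Probes with a detection p-value under 0.01 on at least 3 arrays were kept, 13948 of 25697 (54.3%). A limma fit over 8 groups gave each contrast and the interaction terms, called at a Benjamini-Hochberg adjusted p under 0.05. A group in which no array detected a probe gives only a bound, written as "at least", set against the lowest detected signal of each array. The limma fit was tested on simulated log2 values, while the normalization and the bound were not tested in that way. Of the probes, 23978 had 1 gene symbol, 0 several and 1719 none in the platform table, and 23962 matched RefSeq by Entrez ID.

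Named genes are up to 15 in each direction with the largest difference among probes past the threshold and detected on every array of the brighter group, plus members of 30 gene lists that passed, plus up to 4 defining members of a list. Genes beside these were chosen after their values were seen. The members and lists were chosen with earlier results of these data known. The labels number replicates without saying that they are separate animals, so p-values measure the spread between arrays. The number of arrays limits the precision. No chip or scan date was given, so no batch term was fitted. Same-numbered replicates did not consistently deviate together. The correlation was 0.464 for replicate 1, -0.288 for replicate 2 and -0.359 for replicate 3, so the main fit has no block.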

Additional observations from a re-analysis of the deposited data

Results flagged for a closer look

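Among the 35 named probes, 3 had a young WT saline array far from the other 3 of its group, and chance flags about 1 in 20 groups. For Ctss the distant array read 6.42 and the others 6.08, 6.11 and 6.12. For Icam1 it read 6.60 and the others 6.09. For 1700123O20Rik it read 8.74 and the others 7.85, 7.98 and 8.00.

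The interaction test flagged genes whose age difference in WT after saline differed from that in other arrays. Against WT after NR the term was -3.65 for 1700123O20Rik, -2.45 for Samd4, -2.42 for Ncoa4, -1.47 for Parp2, -1.35 for Ogfod3 and -0.86 for Apex1. Against Csb after saline it was -3.75 for 1700123O20Rik, -2.41 for Samd4, -2.14 for Ang, -1.33 for Apex1 and -1.22 for Ogfod3. The terms of 1700123O20Rik and Ang are fitted values that rest on old WT saline arrays that did not detect the probe, so their size is not measured.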

How the results depend on the processing

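The 181 calls of age in WT after saline became 32 with only the compared groups in the fit, 2159 with array weights, 108 with the background level and 25 with brightness as a covariate, and 407 with the other-region markers. Leaving out 1 array gave 31 to 292: 292, 31 and 56 without old replicates 1, 2 and 3, and 65, 80 and 48 without young replicates 2, 3 and 4. The replicate block gave 195, and same-numbered arrays did not consistently deviate together. Age in WT after NR (1978) became 116 with only the compared groups, 3361 with weights and, rounded, 1.1e2 with brightness, and 989 to 2935 leaving out 1 array (1037 without old replicate 4, 989 without young replicate 1). Age in Csb after saline (458) became 247 without the filter, 250 with only the compared groups, 2818 with weights, 75 with background, 52 with brightness, 299 in the deposited z-scores and 212 with the markers. Leaving out 1 array gave 18 to 697 there (old replicates 1, 2 and 3: 697, 162 and 31, young replicates 2 and 3: 18 and 34). The age by treatment count (6) became 124 with weights, 14 with the markers, 1 without chromosome 14, and 4 to 30 leaving out 1 array (30 without old WT NR replicate 1). The age by genotype count (5) became 3 without background correction and in the z-scores, 13 with weights, 9 with the markers, 0 without chromosome 14, and 3 to 7 leaving out 1 array (3 without Csb old or young replicate 2, WT old replicate 2 or 3, or WT young replicate 2).

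Of 35 named genes, 9 passed in every setting run (Arhgap22, 1700123O20Rik, Samd4, Ncoa4, Pank3, Ang, Psmb5, Parp2 and Ogfod3), 26 lost the call in at least 1, and 0 reversed. The markers and chromosome 14 alternatives were chosen after seeing the data. The causes of these shifts were not tested. Probes near background have little signal to compare.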

Other observations

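Neuronal channel and signalling genes outside the lists were among those lower in old WT after saline, chosen here after their values were seen. On the lists themselves, 0 of 18 synaptic transmission genes and 1 of 15 calcium signalling genes passed. Kcna1 and Kcnc1, voltage-gated potassium channels, fell by 0.96 and 0.74. Cacnb4, a calcium channel subunit whose loss causes ataxia in mice, fell by 0.99, and Gria3, an AMPA receptor subunit, by 0.79. Vldlr, a reelin receptor, fell by 0.97. Among higher genes chosen the same way, the mitochondrial enzyme genes Sdhd and Pdhb rose by 0.92 and 0.84. Each passed at 1 probe, and the further probes tested of Kcnc1, Cacnb4, Gria3, Vldlr and Pdhb had the same sign and did not pass. The calls of these genes were not followed over the alternative settings.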
